A study of Mus musculus with 3 samples.

Results

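Globins and the enzymes that make heme were followed in adult mouse cortex carrying a heterozygous deletion in Gtf2i, the gene of the transcription factor TFII-I. The group comprised 9 genes: the globin genes Hba-a1, Hbb-bt and Hbb-bs, and the heme synthesis genes Alas1, Alas2, Alad, Urod, Cpox and Fech. They were found by matching the accession of each array probe to RefSeq symbols. Of the 9, 8 had a probe, out of 12721 named genes tested in all, and no probe carried an accession of Hbb-bs. The 8 genes were read by 13 probes, all flagged reliable on all 3 arrays. In the mutant cortex Hba-a1 and Alas2, each on its only probe, were called lower (limma adjusted p under 0.05). So were 2 of 4 Hbb-bt probes and 1 of 2 Alas1 probes, while Fech was higher on one probe and lower on its other. The Hbb-bt and Alas2 calls ended without replicate 1 and without replicate 2.

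Total RNA came from the cortex of mice aged 16 weeks, either heterozygous for the exon 2 deletion allele, Gtf2i(+/Δex2), or wild type, WT (+/+). The strain background of both was mixed (98.4% C57BL/6J with 1.6% 129Sv/CD1), and RNA was pooled from 3 to 5 mice per genotype. On each of 3 two-colour Agilent arrays a mutant and a wild-type pool were hybridised together; Cy3 marked the mutant RNA, except on replicate 2, where it was marked by Cy5. Whether the same pools were used on more than one array is unstated, so a p-value here reflects no more than array-to-array spread, possibly technical.

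Values are deposited normalized intensities in arbitrary units and log2 ratios of mutant over wild type. That direction is likely rather than stated: the titles name the mutant first, the readme defines the ratio as test over control, and the Pro25G control spots turned over with the dyes (median log2 4.51, -4.54 and 4.58 on replicates 1, 2 and 3). Genes were called at an adjusted p under 0.05 with limma, a linear model moderated across all 27530 tested probes, with Benjamini-Hochberg adjustment. Reliable spots made up 64.4% to 69.7% of gene spots, and median gene-spot signals were 204 to 206, against 72.3 to 81.4 for negative control spots. Gtf2i itself, read by probe A_52_P442585, had signals of 418.3, 444.3 and 446.7 in wild type and 303.6, 327.0 and 311.6 in mutant cortex on replicates 1 to 3. Every mutant signal lay below every wild-type signal (mean log2 ratio -0.47, limma adjusted p = 0.0026), and its other probe, A_51_P499905, read -0.32. The position of either probe with respect to exon 2 was not examined, so these ratios give Gtf2i RNA signal and do not check the deletion itself.

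Heme is an iron-bearing porphyrin ring that is built partly in mitochondria and partly in the cytosol. Synthesis starts with aminolevulinate synthase, which exists as a ubiquitous form (Alas1) and an erythroid form (Alas2), and ends when ferrochelatase (Fech) inserts iron. Most heme in the body is made in red cell precursors for hemoglobin, the tetramer of alpha and beta globin chains, and reticulocytes that enter the blood still hold globin and Alas2 messenger RNA. Every cell makes some heme for cytochromes and other enzymes, and globin transcripts have also been described in neurons and glia. In bulk cortex, blood held in the vessels and the tissue's own cells are read together, and fewer cells of a type and less RNA per cell cannot be told apart.

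The start regions of the globin genes and of both aminolevulinate synthase genes are shown because Hba-a1, Hbb-bt, Alas1 and Alas2 were called lower; Hbb-bs, which no probe read, is shown for comparison with Hbb-bt. RefSeq windows on GRCm38.p6 run from 250 bases before to 50 after the annotated start. The search left out the windows of a whole chromosome and found windows for 8 of the 9 genes, all but Fech. The lack of a Fech window is therefore no evidence that none is annotated. Capitals mark every match, on either strand, to AGATAA or TGATAA (the letters GATA factors bind), CACCC (bound by Klf factors), CCAAT and TATAA. A match on the minus strand appears as its reverse complement (GGGTG for CACCC), and neighbouring or overlapping matches merge into one run of capitals. The windows are Hba-a1 at chr11:32283422-32283721 on the plus strand, Hbb-bt at chr7:103813874-103814173 and Hbb-bs at chr7:103827879-103828178 on the minus strand, Alas2 at chrX:150547167-150547466 on the plus strand, and the first of Alas1's 2 windows at chr9:106247905-106248204 on the minus strand.
Hba-a1: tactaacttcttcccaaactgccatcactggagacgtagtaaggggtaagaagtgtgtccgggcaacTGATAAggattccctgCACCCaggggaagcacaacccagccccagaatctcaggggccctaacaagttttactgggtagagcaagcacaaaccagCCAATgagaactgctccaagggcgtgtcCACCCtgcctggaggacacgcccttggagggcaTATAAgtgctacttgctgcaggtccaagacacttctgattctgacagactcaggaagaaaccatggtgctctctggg
Hbb-bt: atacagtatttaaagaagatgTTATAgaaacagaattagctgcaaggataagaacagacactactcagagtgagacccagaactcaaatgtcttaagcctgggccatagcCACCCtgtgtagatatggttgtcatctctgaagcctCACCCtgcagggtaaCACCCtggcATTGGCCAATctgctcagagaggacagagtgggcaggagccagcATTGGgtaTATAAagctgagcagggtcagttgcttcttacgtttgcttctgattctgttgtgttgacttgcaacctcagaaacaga
Hbb-bs: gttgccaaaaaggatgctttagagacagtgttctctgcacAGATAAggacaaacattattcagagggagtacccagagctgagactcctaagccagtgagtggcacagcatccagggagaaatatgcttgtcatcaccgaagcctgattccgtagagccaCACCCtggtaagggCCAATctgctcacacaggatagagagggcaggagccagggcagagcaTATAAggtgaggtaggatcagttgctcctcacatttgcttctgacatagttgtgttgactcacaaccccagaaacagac
Alas2: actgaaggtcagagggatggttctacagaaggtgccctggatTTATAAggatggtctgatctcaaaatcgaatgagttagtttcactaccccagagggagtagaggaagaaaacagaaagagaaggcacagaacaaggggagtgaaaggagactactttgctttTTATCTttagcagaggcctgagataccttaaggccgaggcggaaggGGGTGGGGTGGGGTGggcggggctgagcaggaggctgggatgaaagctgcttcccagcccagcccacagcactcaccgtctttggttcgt
Alas1: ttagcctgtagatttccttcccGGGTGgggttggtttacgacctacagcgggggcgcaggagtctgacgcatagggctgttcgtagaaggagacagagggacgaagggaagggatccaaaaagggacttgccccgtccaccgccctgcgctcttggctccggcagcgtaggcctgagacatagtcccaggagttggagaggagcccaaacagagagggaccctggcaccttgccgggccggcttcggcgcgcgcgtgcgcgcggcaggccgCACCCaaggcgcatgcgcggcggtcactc

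The Hba-a1 window holds TGATAA 183 bases before the start, CCAAT at 88 bases and TATAA at 27 bases before it. Hbb-bs has the same arrangement, with AGATAA at 210, CCAAT at 76 and TATAA at 29 bases before the start. Hbb-bt has 3 CACCC and 3 CCAAT matches, with TATAA 28 bases before the start on the plus strand, and the letters AGATAA and TGATAA are not in this window. The erythroid Alas2 window holds AGATAA on the minus strand 86 bases before the start and 3 CACCC matches on the minus strand. The ubiquitous Alas1 window shown has only 2 CACCC matches. The window of Cpox, which is not shown, holds 2 matches to AGATAA or TGATAA and 4 to CACCC. Among 32851 mouse start windows of this length on the chromosomes searched, 18.6% hold AGATAA or TGATAA, 57.5% CACCC, 37.4% CCAAT and 24.9% TATAA. These letters are therefore common, and a match is no evidence of binding. Aligned end to end, the Hbb-bt and Hbb-bs windows were identical at 226 of 311 columns (72.7%), against 49.3% for Alas1 and Alas2. The window of Hba-a1 and that of its near-identical copy Hba-a2 matched at 297 of 303 columns (98%). Probe sequences were not used here, so signals given for Hba-a1 and Hbb-bt may include Hba-a2 and other beta globin copies.

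Across the 13 probes, 7 were called, 6 lower and 1 higher, where 33.9% of all tested probes were called. By the probe with the smallest p of each gene, 4 of the 8 genes fell (23.6% of all tested genes did) and 1 rose (17.1% did). The 7 called probes were also the ones whose mutant and wild-type signals did not overlap, which held for 32.2% of all tested probes. The median of the 8 genes' log2 ratios was -0.23, beside -0.02 over all 12721 genes. With replicates 1 and 2 averaged and counted as 1 array, 3 of the 8 genes were called, and leaving out replicate 1, 2 or 3 left 2, 3 or 5.

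**Figure D1:**
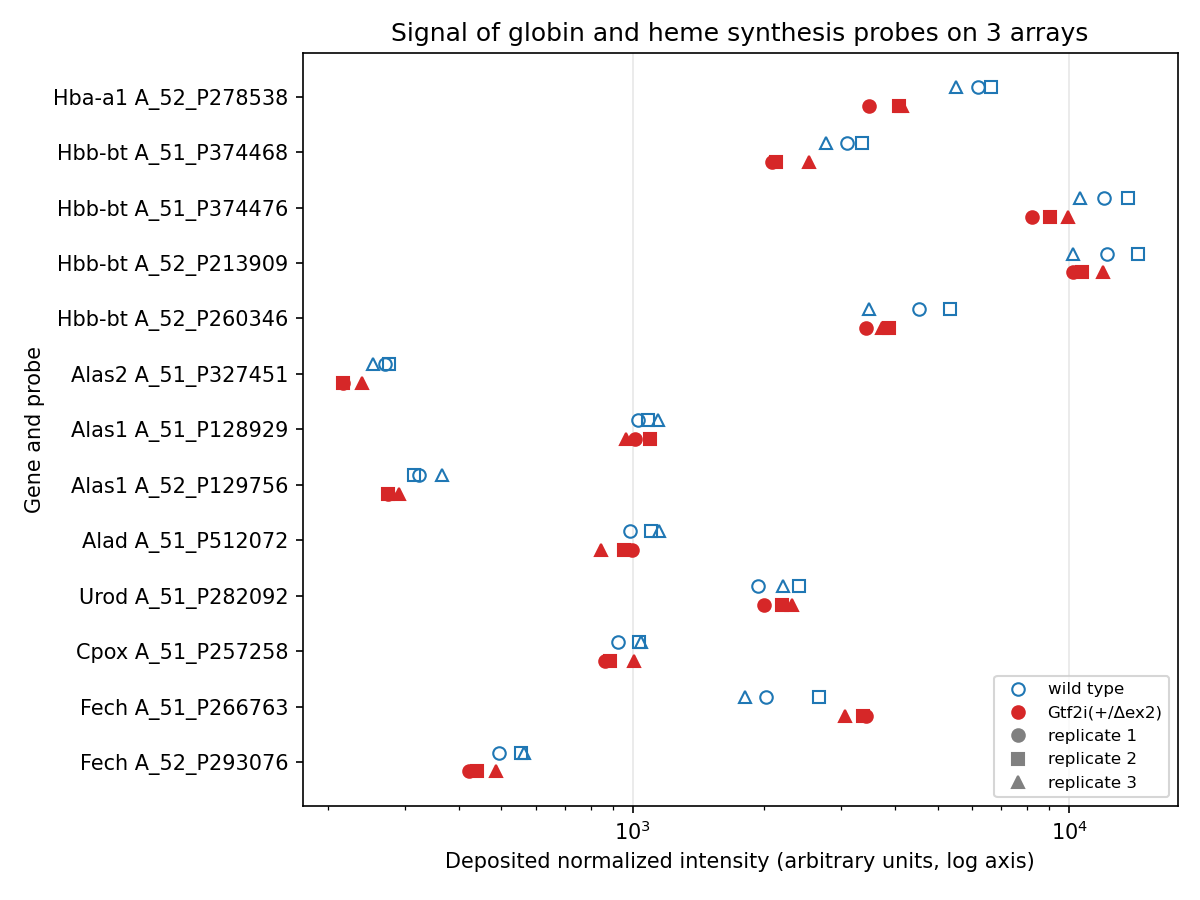
Deposited normalized intensity (arbitrary units, log axis) of the 13 probes, with wild-type channels as open blue symbols and mutant channels as filled red symbols, and the symbol shape giving the array. The groups separate at Hba-a1, at 2 of 4 Hbb-bt probes, at Alas2, at 1 of 2 Alas1 probes and at both Fech probes, of which A_51_P266763 is higher in the mutant.

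Hba-a1, an adult alpha globin chain, had the lowest mean log2 ratio of the 13 probes. Its probe A_52_P278538 read 6198.4, 6621.7 and 5493.4 in wild-type cortex on replicates 1, 2 and 3, and 3482.5, 4074.9 and 4145.7 in mutant cortex. The highest mutant signal lay below the lowest wild-type signal. The log2 ratios were -0.83, -0.70 and -0.41, with a mean of -0.65 (95% interval -0.86 to -0.43, n = 3 arrays, limma adjusted p = 0.00568). This corresponds to 63.9% of wild type (95% interval 55.1% to 74.1%). Hba-a1 kept its call under all 13 alternatives run, with an adjusted p of at most 0.0332.

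Hbb-bt, an adult beta globin chain, was read by 4 probes, of which 2 were called. Probe A_51_P374468 read 3102.9, 3361.3 and 2774.8 in wild type and 2084.4, 2124.4 and 2529.1 in the mutant, and A_51_P374476 read 12035.3, 13621.8 and 10595.7 against 8224.6, 9058.4 and 9927.5. At both probes the groups did not overlap, although on replicate 3 they came close. The mean log2 ratios were -0.46 (95% interval -0.72 to -0.19, limma adjusted p = 0.0264) and -0.41 (-0.67 to -0.15, limma adjusted p = 0.0331, n = 3 arrays each), or 72.9% and 75.2% of wild type.

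At the other 2 Hbb-bt probes the genotypes overlapped and neither was called. Probe A_52_P260346 read 4537.4, 5335.9 and 3482.1 in wild type and 3430.3, 3862.5 and 3732.2 in the mutant, a mean log2 ratio of -0.26 (95% interval -0.55 to 0.03, limma adjusted p = 0.143). Probe A_52_P213909 read 12242.8, 14369.1 and 10221.7 against 10226.6, 10726.9 and 11939.2, a mean of -0.15 (-0.46 to 0.16, limma adjusted p = 0.379). On replicates 1 and 2 both probes were lower in the mutant, with log2 ratios from -0.47 to -0.26, and on replicate 3 both were higher, at 0.10 and 0.22. Within each array the 4 probes spanned 0.31, 0.24 and 0.36 in log2 ratio on replicates 1, 2 and 3.

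The beta globin call rested on which arrays were used. Leaving out replicate 1 ended both Hbb-bt calls (limma adjusted p = 0.122 and 0.151), and so did leaving out replicate 2 (0.0999 and 0.127) or counting the mean of both as 1 array (0.107 and 0.131). The other 2 gained a call without replicate 3 (limma adjusted p = 0.000465 for A_52_P260346 and 0.00247 for A_52_P213909) and with arrays weighted by limma (0.00204 and 0.0128).

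Alas2, the erythroid aminolevulinate synthase, fell on a dim probe. Its probe A_51_P327451 read 271.0, 276.3 and 253.4 in wild type and 216.2, 217.1 and 239.6 in the mutant. All mutant signals lay below all wild-type signals, and the nearest pair was again that of replicate 3. The log2 ratios were -0.33, -0.35 and -0.08, with a mean of -0.25 (95% interval -0.41 to -0.09, limma adjusted p = 0.0331), or 84.0% of wild type. The call ended without replicate 1 (adjusted p = 0.184), without replicate 2 (0.117) and with both averaged as 1 (0.131), all from the same limma test.

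**Figure D2:**
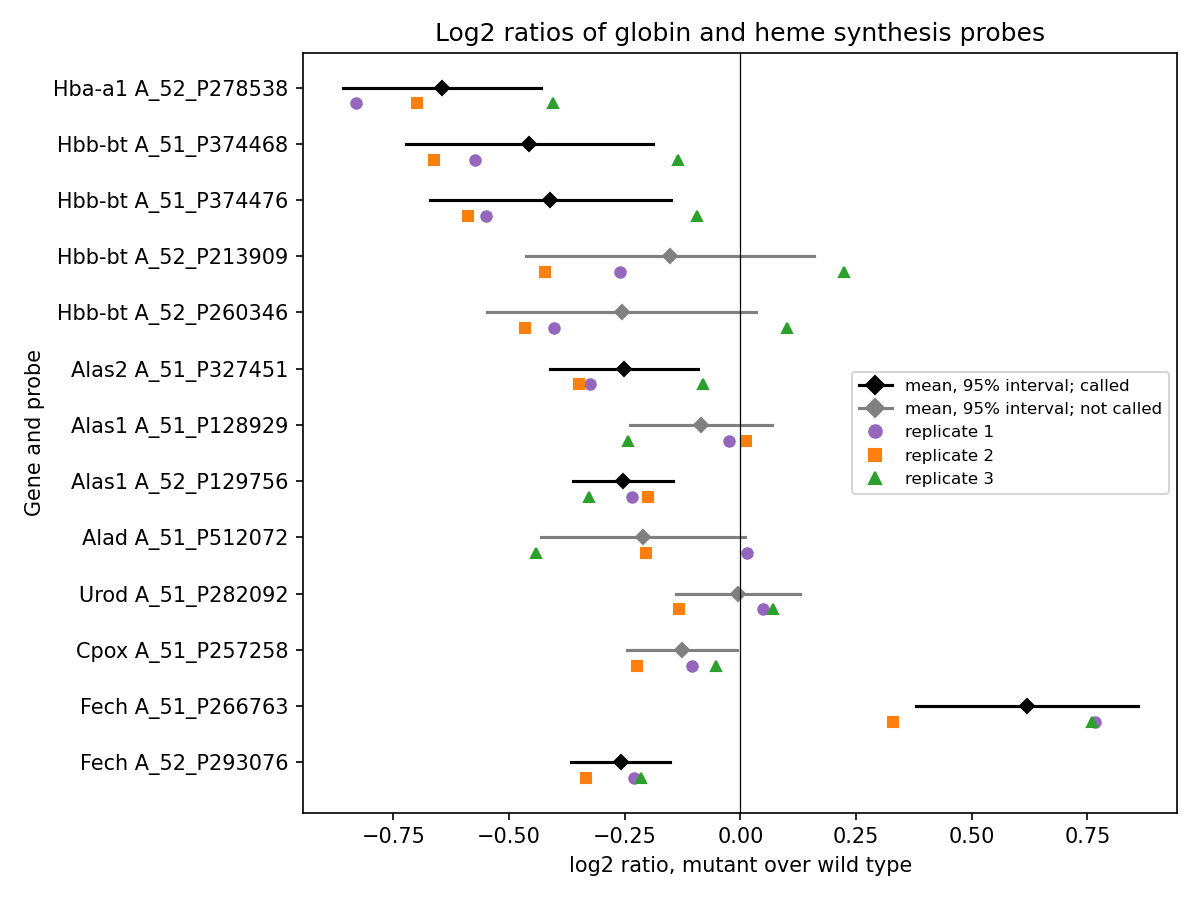
Log2 ratio of mutant over wild type for the 13 probes. Diamonds and lines give the mean and 95% limma interval, black where called and grey where not, and the coloured symbols give the 3 arrays. Replicate 3 lies to the right of replicates 1 and 2 at all 5 globin probes, Alas2, Urod, Cpox and Fech probe A_52_P293076, to the left of them at both Alas1 probes and Alad, and between them at Fech probe A_51_P266763.

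Alas1, the ubiquitous form of the first enzyme, had one called and one uncalled probe. Probe A_52_P129756 read 322.8, 315.8 and 365.0 in wild type and 274.5, 274.8 and 290.7 in the mutant, with no overlap. Its log2 ratios were -0.23, -0.20 and -0.33, a mean of -0.25 (95% interval -0.36 to -0.15, limma adjusted p = 0.0106), and it lost its call without replicate 1 (0.08). Probe A_51_P128929 read 1028.4, 1086.3 and 1141.0 against 1011.7, 1095.9 and 963.8. Here the genotypes overlapped, and the mean was -0.09 (95% interval -0.24 to 0.07, limma adjusted p = 0.322). Both probes had their lowest ratio on replicate 3, where the globin ratios were nearest to 0.

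The enzymes of the middle of the pathway were not called. Alad, which joins aminolevulinate molecules into porphobilinogen, read 986.1, 1098.1 and 1149.1 in wild type and 995.4, 952.8 and 846.7 in the mutant. Its log2 ratio went from 0.01 on replicate 1 to -0.20 and -0.44 on replicates 2 and 3 (mean -0.21, 95% interval -0.43 to 0.01, limma adjusted p = 0.121). Urod, which removes carboxyl groups from uroporphyrinogen, read 1933.6, 2403.7 and 2209.4 against 1998.5, 2193.1 and 2320.0. Its 95% interval of -0.14 to 0.13 (mean -0.005, limma adjusted p = 0.954) runs from 90.8% to 109% of wild type. That interval reflects array-to-array spread only. Cpox, the mitochondrial coproporphyrinogen oxidase, read 926.8, 1033.8 and 1046.9 against 861.8, 885.7 and 1008.8. Cpox was lower in the mutant on each array, by -0.10, -0.22 and -0.05 in log2 ratio, but the groups overlapped and the mean of -0.13 missed the threshold (limma adjusted p = 0.0924). It passed with arrays weighted (0.00834) and with the dye as a term of the fit (0.0441).

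Fech, the ferrochelatase that inserts iron into protoporphyrin, gave opposite results on its 2 probes. Probe A_51_P266763 read 2017.6, 2678.2 and 1810.7 in wild type and 3431.1, 3365.7 and 3068.4 in the mutant. All 3 mutant signals lay above all wild-type signals, with log2 ratios of 0.77, 0.33 and 0.76. The mean of 0.62 (95% interval 0.38 to 0.86, limma adjusted p = 0.00835) is 154% of wild type. Probe A_52_P293076 read 493.6, 553.4 and 564.3 against 421.2, 439.0 and 486.3, again without overlap but in the other direction. Its log2 ratios were -0.23, -0.33 and -0.21, a mean of -0.26 (95% interval -0.37 to -0.15, limma adjusted p = 0.00998), or 83.6% of wild type.

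The log2 ratios of the Fech probes differed by 0.664 (replicate 2) to 0.995 (replicate 1), so each array held the disagreement. The higher probe kept its call under all 13 alternatives (adjusted p at most 0.0481), and the lower one lost it without replicate 1 (limma adjusted p = 0.0737). Of 750 genes with at least 2 called probes, 198 (26.4%) had called probes of opposite sign, so the pattern was common on these arrays. Which transcripts the 2 Fech probes read was not tested, and the direction for Fech as a gene is not settled by these data.

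By role, the globin probes and Alas2 were lower on replicates 1 and 2 than on replicate 3, and the other heme synthesis probes varied among themselves. The mean of the 5 globin probes was -0.52 on replicate 1, -0.57 on replicate 2 and -0.06 on replicate 3 (mean -0.38 ± 0.28, SD, n = 3 arrays). Alas2 ran -0.33, -0.35 and -0.08. The 7 probes of the other 5 heme synthesis genes averaged 0.03, -0.11 and -0.06, or -0.06, -0.15 and -0.20 without Fech. Among these 7, Urod, Cpox and Fech probe A_52_P293076 had their highest ratio on replicate 3, as the globins did, while Alad and both Alas1 probes had their lowest there. No test of a difference between the classes was run. Replicates 1 and 3 carried the same dyes and replicate 2 the opposite ones. The part of dye, pool or array in the spread of these ratios over the arrays was not tested. The median of all tested probes was between -0.01 and 0.00 on every array.

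Hba-a1 lay below the mean of the Hbb-bt probes on each array. The log2 ratio of Hba-a1 minus the mean of the 4 Hbb-bt probes was -0.385, -0.166 and -0.430 on replicates 1, 2 and 3. On replicate 3 the mean of the Hbb-bt probes was 0.02 while Hba-a1 read -0.41. No test of this difference was run.

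The genes closest to the mean globin ratios over the 3 arrays, by Euclidean distance among 12713 genes, were Drd2 (0.066), Hspa1a (0.074), Dlgap2 (0.076), Kcnc1 (0.082), Kif5c (0.103) and Samd5 (0.106). Drd2, a dopamine receptor, read log2 ratios of -0.50, -0.58 and -0.001, and Kcnc1, a potassium channel, -0.55, -0.57 and -0.14. Alas2 stood at a distance of 0.30, with 248 genes (1.95%) closer, and the other heme synthesis genes were farther, from Alas1 at 0.54 to Fech at 1.77. With 3 points per gene, such likeness is a description.

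Blood and vessel markers were read beside the globins. Of 24 erythroid genes, 13 were tested. Another 10, including the erythroid factor gene Klf1, had probes that were not reliable. Slc4a1, the red cell anion exchanger, was tested and read -0.03 (limma adjusted p = 0.531), with wild-type signals of 222.1, 201.6 and 206.5 and mutant signals of 212.0, 201.3 and 202.1. Of the 13 tested, 4 fell and 1 rose, where 23.6% of all tested genes fell and 17.1% rose. The 4 were Dmtn (-0.37), Tmcc2 (-0.67), Bpgm (-0.27) and Ank1 (-0.14), of which Dmtn and Ank1 encode proteins of the membrane skeleton and Bpgm makes the bisphosphoglycerate that loosens oxygen from hemoglobin. The riser was Epor, the erythropoietin receptor (0.25). Bpgm read 0.08 on its other probe, and Ank1 -0.03 and 0.01 on its other 2. The called Ank1 probe was dim, with mean signals of 144.7 in wild type and 131.2 in the mutant.

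The summed signal of the tested erythroid probes was 18087 to 19487 in wild type and 15858 to 17351 in the mutant. The 2 probes of Dmtn, a gene that is not red cell specific, made up 62.3% of the difference, and without them the sums overlapped (12564 to 13780 and 11832 to 12748). The median log2 ratio of the 13 genes was -0.05, and Gata1, Trim10, Slc4a1, Gfi1b, Sptb, Car1, Bnip3l and Tspo2 were not called. Over all 18 tested erythroid probes, called ones included, the mean log2 ratios were -0.11, -0.13 and -0.03 on replicates 1, 2 and 3. Leukocyte markers summed to 7393 to 7867 in wild type and 6668 to 6835 in the mutant, where 1 of 10 tested genes fell (Coro1a, an actin regulator of white cells, at -0.43). The called Coro1a probe had mean signals of 2436.5 in wild type and 1804.2 in the mutant, and its other probe read -0.39. The median log2 ratio of the 10 leukocyte genes was 0.01. Leukocyte sums without Coro1a were not computed, so the separation may rest on that gene. Platelet markers overlapped, at 1378 to 1408 and 1347 to 1437, with 1 of 6 tested genes higher (Treml1, 0.16). Their part in the globin result was not tested.

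Of 14 endothelial genes 12 were tested and 0 were called by limma (2 at an unadjusted p under 0.05, 1 in each direction), and the summed signals overlapped (15590 to 18374 in wild type, 17195 to 20191 in the mutant). The mean endothelial ratios were -0.06, -0.11 and 0.10. The genes varied in different ways over the arrays. Slc2a1, the glucose transporter of the blood-brain barrier, read 0.28, 0.54 and 0.08, and Ly6c1 -0.08, -0.10 and -0.46. Flt1, a VEGF receptor, read -0.25, -0.38 and 0.20 (0.03 on average at its other probe), and Cldn5, a tight junction gene of brain endothelium, -0.35, -0.43 and 0.27. Of 8 tested pericyte and smooth muscle genes 3 fell, Tagln (-0.81), Acta2 (-0.32) and Vtn (-0.31), and 2 rose, Rgs5 (0.54) and Pdgfrb (0.36). Over all tested genes 23.6% fell and 17.1% rose. Acta2 read 0.15 on its other probe. The summed signals of this list were 10907 to 12397 in wild type and 9310 to 10462 in the mutant, without overlap. Tagln had the largest drop, from a mean signal of 4607.7 in wild type to 2629.7 in the mutant. Rgs5 went from 1539.1 to 2234.0 and Pdgfrb from 558.8 to 717.9. Acta2 went from 2190.3 to 1759.3 and Vtn from 1608.8 to 1304.5, and the median log2 ratio of the 8 genes was -0.08. The sums without Tagln were not computed, so the separation may rest on that gene and shows no drop of the list as a whole. The part of vessel content in the globin ratios was not tested.

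**Figure D3:**
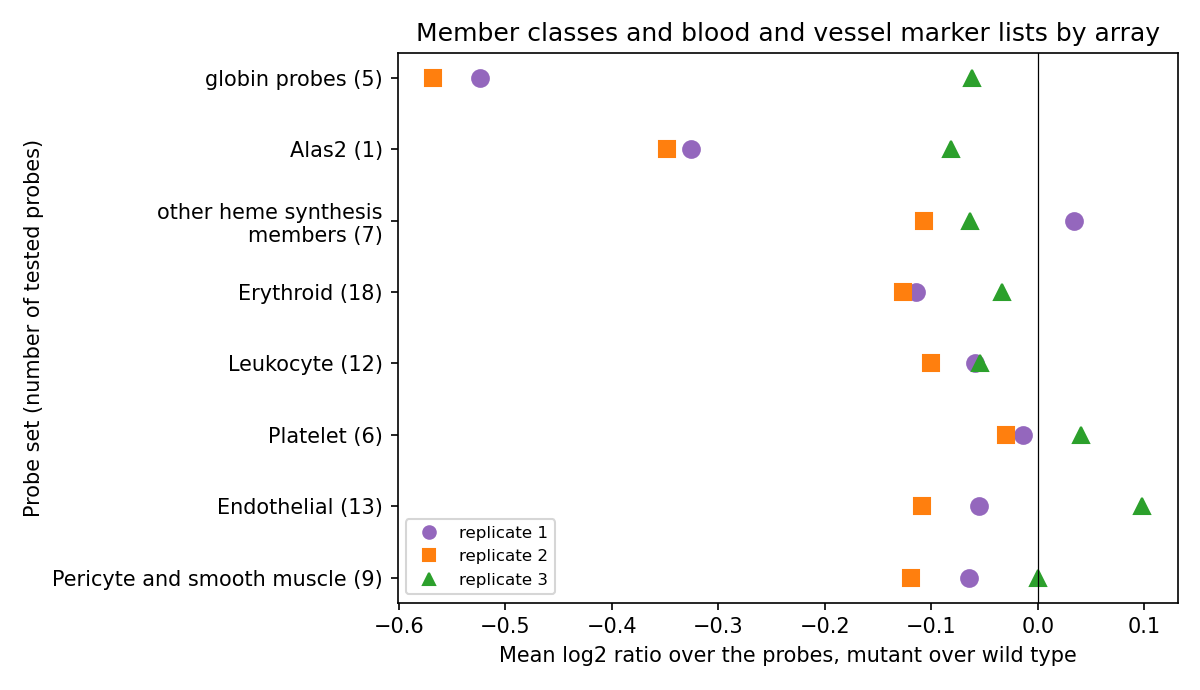
Mean log2 ratio on each array for the globin probes, Alas2, the other heme synthesis probes and 5 marker lists, with the number of tested probes in parentheses. Globin probes and Alas2 lie lowest on replicates 1 and 2; the endothelial mean is -0.06, -0.11 and 0.10.

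Neuronal and glial markers were also read as ratios of mutant over wild type, which do not check the tissue label. All 8 listed cortical neuron genes were tested, 4 lower and 1 higher in the mutant. So were 4 of 5 astrocyte genes (3 lower) and 4 of 4 oligodendrocyte genes (1 lower, 1 higher). Over all tested genes 23.6% were called lower and 17.1% higher. The excitatory neuron transporter gene Slc17a7 read -0.41 and the astrocyte water channel gene Aqp4 -0.78, with -0.30 and -0.07 on its other probes. In the other direction, the neuronal gene that rose was Snap25 (0.23, with 0.28 and 0.33 on its other 2 probes). The astrocyte gene Slc1a3 read 0.14 and was not called. Median log2 ratios were -0.335 for the neuron genes, -0.546 for the astrocyte genes and -0.025 for the oligodendrocyte genes. The median of the 8 member genes was -0.231.

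Other globins were mostly not called. Cygb, a cytoglobin found in many tissues, fell, with signals of 887.6, 863.3 and 978.7 in wild type and 732.0, 782.8 and 874.9 in the mutant (mean log2 ratio -0.19, limma adjusted p = 0.0253). Its mutant and wild-type signals overlapped between arrays, although the mutant was lower on each one. Ngb, the neuronal globin, read 6163.0, 5971.5 and 6256.8 against 5297.9, 6736.3 and 4770.4 and was higher in the mutant on replicate 2 alone (mean -0.15, limma adjusted p = 0.341). The embryonic beta-type genes Hbb-y (0.04) and Hbb-bh1 (0.10) and the myoglobin gene Mb (0.10) were not called. Embryonic Hba-x, at 98.6 to 120.5, was not reliable on any array.

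Of the rest of the heme pathway, 3 further enzymes were tested and 0 were called by limma, nor were any at an unadjusted p under 0.05. Uros, which closes the ring, read 0.07 (limma adjusted p = 0.352), and Ppox, which oxidises protoporphyrinogen, 0.01 (0.838). Among 13 tested genes of heme transport and mitochondrial supply, 2 fell and 3 rose, where 23.6% of all tested genes fell and 17.1% rose. Tmem14c, a mitochondrial membrane protein needed for porphyrin import, fell (-0.20), as did the lysosomal heme transporter gene Slc48a1 (-0.22). Clpx, whose protein activates aminolevulinate synthase, rose (0.24), as did Flvcr2 (0.24) and Slc46a1 (0.20), a carrier of folate and heme. Cox15, which makes the heme A of cytochrome oxidase, rose by 0.66 (limma adjusted p = 0.00253), with 0.78, 0.60 and 0.61 on the 3 arrays.

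Iron handling genes that were called were higher in the mutant. Of 14 tested with limma, 5 rose and 0 fell (7 and 0 at an unadjusted p under 0.05), where 17.1% of all tested genes rose and 23.6% fell. The 5 were Tfrc, the transferrin receptor (0.25, limma adjusted p = 0.00856), Slc11a2, an iron importer (0.25), Fbxl5, which senses iron (0.28), Ncoa4, which delivers ferritin for breakdown (0.14), and the iron oxidase gene Heph (0.15). Slc11a2 read -0.14 on its other probe, Ncoa4 -0.03 and 0.06 on its other 2, and Fbxl5 0.23 on its other. In heme breakdown and scavenging 1 of 6 tested genes rose, the biliverdin reductase gene Blvrb (0.28, limma adjusted p = 0.0492).

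Among 9 tested genes that control heme synthesis or sense heme, 4 fell and 0 rose by limma (5 and 0 at an unadjusted p under 0.05). Ppargc1a, a coactivator of Alas1 in liver, read -0.18, its partner Foxo1 -0.37, the heme-binding receptor gene Nr1d1 -0.23 and the heme-regulated repressor gene Bach1 -0.15. Foxo1 and Nr1d1 read 0.01 and -0.01 on their other probes. Of 16 tested heme proteins 3 fell and 4 rose; the soluble guanylate cyclase gene Gucy1a1 (-0.60) and the complex II gene Sdhc (-0.34) fell, and Por, the reductase of the P450 enzymes (0.24), and Ptgs1 (0.29) rose. Over these lists together 10 of 67 tested genes fell and 14 rose, with a median log2 ratio of -0.01, beside 2998 and 2179 of 12721 over all genes and a median of -0.02.

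**Figure D4:**
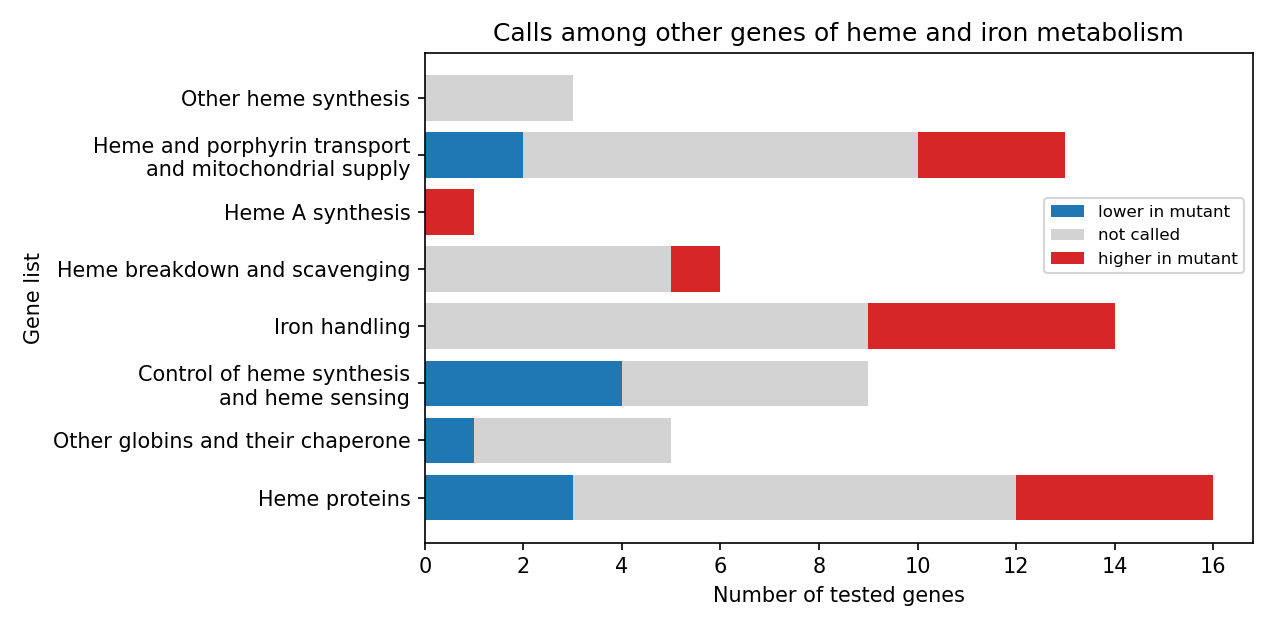
Number of tested genes lower, not called and higher in the mutant in each list of heme and iron genes outside the 9 members. Calls use the probe with the smallest p of each gene. Iron handling has 5 higher and 0 lower of 14, and control of heme synthesis 4 lower and 0 higher of 9. Over all tested genes 17.1% were higher and 23.6% lower.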

How the data were processed

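RNA from Gtf2i(+/Δex2) and wild-type cortex was compared on 3 two-colour arrays. The authors deposited, per array, linear intensities of both channels at 44290 spots, background-subtracted, normalized and turned for the dye swap, per the deposited readme, which names GenePix and no normalization method. They also deposited a log2 ratio per probe. A further table holds a score the authors made for every spot, a signed fold identical to each array's fold column; its medians were -1.01, -1 and 1, and 0 of its columns were left unused. Per the readme, reliable spots have a foreground above 2 times the background, and the authors selected genes by a limma B statistic above 0, which 1 of the 13 probes passed (9.67% of all tested).

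Spots of one probe were averaged, and probes reliable on at least 2 arrays were tested (27530 of 41174). Accessions were matched without versions to RefSeq genes (GRCm38.p6, for names only), which named 21445 probes. Loess was planned for values not yet normalized; these were, so ratios were tested as deposited and loess is an alternative. The fit used limma 3.58.1 in R 4.3.3, checked on simulated data; files were read with data.table, version 1.17.8, and tables and figures used Python 3.11.15, pandas 2.3.3, numpy 2.4.6 and matplotlib 3.10.9. A gene was called by its probe with the smallest p. Named were all members with every probe, Gtf2i, up to 4 genes of smallest p per list and the 6 genes nearest the globin ratios; Klf1, Slc4a1, Ank1, the uncalled erythroid genes, Cldn5, Vtn, Slc46a1, Heph, Hbb-y and Hba-x were named after their values were seen. A few genes of the lists are not reported here by name, though counts include them. The members and lists were chosen with earlier results of these data known.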

Additional observations from a re-analysis of the deposited data

How the results depend on the processing

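Against 9333 probes called, array weights gave 18617, replicates 1 and 2 averaged as 1 array 5120, and leaving out 1 array 2409 (without replicate 1) to 9885 (without replicate 3). Member genes called were 5, against 3 with replicates 1 and 2 averaged and 2 to 5 with 1 array left out. Urod, near 0, at -0.005, turned sign with array weights (0.039) and with those replicates averaged (0.014), and ran from -0.042 to 0.059 with 1 array left out. Loess, median centring, subtraction of negative controls, a pseudocount of 50, both reliability filters and the deposited log2 ratio left 5 member genes called, and array weights or a dye term gave 6. Array weights were 5.84, 0.373 and 0.459, so that alternative rests mostly on replicate 1. The dye term gave 0 probes with limma's adjusted p (2409 at an unadjusted p under 0.05). Ratios within arrays already pair the genotypes, so no further replicate block was fitted. Causes of these shifts were not tested. The number of arrays limits the precision, and signals of Alas2 and of one Alas1 probe lay near the median gene spot.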
